A study of Mus musculus with 8 samples.

Results

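The genes described here are 9 genes of the NRF2 antioxidant pathway, chosen by symbol: *Nfe2l2*, which encodes the transcription factor NRF2, *Keap1*, which encodes its inhibitor, and the target genes *Nqo1*, *Hmox1*, *Gclc*, *Gclm*, *Gsr*, *Txnrd1* and *Srxn1*. All 9 were found among the 41325 gene symbols of each library, and all 9 were among the 11513 symbols with an RPKM (reads scaled to the exon length of the gene and to the mapped reads of the library) over 1 in at least 1 library, which are called expressed genes here. Across the 8 libraries, *Nqo1* and *Hmox1* had the widest ranges of the 9 (4.32-fold and 3.26-fold between the highest and the lowest library), whereas *Nfe2l2* had the narrowest (1.34-fold). *Hmox1* was higher and *Gclc*, *Gclm*, *Gsr* and *Txnrd1* were lower at day 5 than at day 0 in each of the 4 lines on the RPKM scale, although only *Hmox1*, *Gclm* and *Txnrd1* passed 2-fold in any of them. Dividing by *Gapdh* turned the sign of *Gclc* and *Gsr* in KDM4D-depleted cells and brought *Gclm* and *Txnrd1* there to -0.09 and -0.01. It brought *Hmox1* in NFIB-depleted cells to 0.00. In a limma fit over all 8 libraries, 5 of the 9 genes passed an adjusted p of 0.05 for day, beside 50.0% of all expressed genes. *Nqo1* stood above the control in KDM4D-depleted cells and below it in NFIB-depleted cells on both days on the RPKM scale, although dividing by *Gapdh* brought the value in NFIB-depleted cells at day 0 to 0.03. Neither difference passed in the limma fit (limma adjusted p = 0.298 and 0.114).

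The RNA came from C3H10T1/2, a line of mouse mesenchymal stem cells (MSCs) that serves as a model of fat cell formation, and was measured by RNA-seq. The 4 lines were control cells (shControl, whose genotype is labelled WT) and cells expressing a short hairpin RNA against the histone demethylase KDM4D (shKDM4D), the transcription factor NFIB (shNFIB) or the histone H3K4 methyltransferase MLL1 (shMLL1). Each line was sequenced once at day 0, when the cells had been confluent for 2 days, and once at day 5 of adipogenic differentiation. Induction was the same in all lines, with insulin (10 µg/ml), dexamethasone (1 µM) and isobutylmethylxanthine (0.5 mM) in 10% fetal bovine serum until day 2, then insulin alone in the same serum for 2 days and then serum without insulin. The hairpins were carried by the pLKO.1 vector and the knockdown lines were isolated as puromycin-resistant clones. Each knockdown is thus represented by 1 line, and the difference between clones and the effect of the knockdown cannot be told apart. Dexamethasone and the other agents were given to every line between the 2 days, so that time, confluence and agents cannot be told apart either.

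NRF2 is a transcription factor that is made continuously and destroyed continuously. KEAP1 binds it in the cytoplasm and presents it to a ubiquitin ligase, and oxidants or electrophiles that modify KEAP1 let newly made NRF2 reach the nucleus. There, with a small MAF partner, it binds antioxidant response elements near genes for quinone reduction, glutathione synthesis, thioredoxin reduction, haem breakdown and NADPH supply. Its control is thus largely on the protein, which RNA-seq does not measure. In fat tissue the pathway has been studied for its part in fat cell formation and lipid storage.

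The core of the antioxidant response element is written here as TGACNNNGC, in which N is any base, and the windows that hold it are shown because this is the sequence through which NRF2 is known to reach its targets. The promoter windows came from RefSeq on GRCm38.p6 and ran from 250 bases before to 50 bases after each transcript start. They held 6 of the 9 genes, and *Hmox1*, *Gclc* and *Gsr* had no window in the table. On either strand, 4 of these 6 genes had the core, against 4071 of all 32851 windows (12.4%) and 3781 of 27025 symbols (14.0%). *Keap1* and *Nqo1* had no match in these windows. The matches below are written 5′ to 3′ on the minus strand, 30 bases each, with the core in capitals, and each is a match of letters, not a measured binding site.
*Nfe2l2* (chr2:75704884-75704913, core 240 bases before the start): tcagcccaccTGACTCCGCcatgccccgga
*Gclm* (chr3:122245413-122245442, core 134 bases before the start): ctcgtgagagtTGACGGTGCgcccgggagc
*Txnrd1* (chr10:82859104-82859133, core 92 bases before 1 of its listed starts): ccgtgtcagaaTGACAAAGCaaaaatccag
*Srxn1* (chr2:152105542-152105571, core 28 bases after the start): gtgtctcactcTGACCTAGCtgcccactgc

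The libraries held between 15842221 and 38202580 mapped reads, as recovered from the steps of the low RPKM values, and each of the 9 genes was covered by 280 to 11916 reads in every library. With 1 library per condition a single comparison has no estimate of the spread between cultures, and its difference was not tested. A test over all 8 libraries, with line and day as additive terms, is given after the single comparisons. Log2 ratios carry exact 95% Clopper-Pearson intervals computed on the recovered reads, which cover counting error only. *Nfib* was at a log2 ratio to shControl cells of -2.10 at day 0 and -2.33 at day 5 in shNFIB cells, and *Kmt2a*, which encodes MLL1, was at -1.37 and -1.70 in shMLL1 cells. *Kdm4d* had 2 reads in shControl and 1 read in shKDM4D cells at day 0 and 13 and 4 reads at day 5, too few at day 0 to show a knockdown. At day 5 its log2 ratio was -1.86 (95% interval -3.94 to -0.17). The study reported reduced KDM4D in its shKDM4D lines by RT-qPCR and immunoblot, and which of these lines was sequenced is not given. Of 8 mesenchymal markers, 7 or 8 had an RPKM over 1 in every library, and *Thy1*, at 25.0 and 22.6 in shControl cells, was between 0.02 and 0.14 in the shKDM4D and shNFIB libraries. The 6 adipocyte markers summed to between 0.154 and 0.702 RPKM at day 0 and to 796, 25.5, 0.936 and 2.86 RPKM at day 5 in shControl, shKDM4D, shNFIB and shMLL1 cells, with *Adipoq* at 0 or near 0 in every day 0 library. The macrophage, endothelial and epithelial markers summed to no more than 2.24, 1.72 and 1.81 RPKM in any library. The day 5 libraries thus differ in adipocyte marker RNA, and in bulk samples fewer cells of a type and less RNA per cell cannot be told apart. The part of this difference in the values of the 9 genes was not tested.

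*Nfe2l2* (chromosome 2 of GRCm38, from 75675513 to 75704641, minus strand, protein coding) was among the more abundant of the 9 genes, with its median RPKM at percentile 91.3 of the expressed genes. Its RPKM was 34.3 at day 0 and 41.8 at day 5 in shControl, 44.8 and 41.3 in shKDM4D, 43.0 and 46.1 in shNFIB, and 35.8 and 44.4 in shMLL1 cells. The shControl and shMLL1 day 0 libraries were the lowest, and the other 6 libraries lay close to each other. In the order of the 8 levels, 6 of the 7 pairs of neighbours were not told apart by counting error.

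*Keap1* (chromosome 9, from 21229730 to 21239361, minus strand, protein coding) was less abundant per length, with a median RPKM of 9.38. Its RPKM was 9.43 and 10.2 in shControl, 8.98 and 9.24 in shKDM4D, 9.34 and 10.6 in shNFIB, and 7.66 and 11.7 in shMLL1 cells. Both the lowest and the highest library belonged to the shMLL1 line, and the 6 libraries of the other lines lay between them. Of the 7 pairs of neighbours, 5 were not told apart. An annotated antisense gene at this locus, *Gm16754*, was listed at no more than 0.301 RPKM.

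*Nqo1* (chromosome 8, from 107388225 to 107403206, minus strand, protein coding) encodes a quinone reductase that is widely used as a readout of NRF2 activity. Its RPKM was 58.1 and 49.7 in shControl, 107 and 90.0 in shKDM4D, 37.9 and 24.6 in shNFIB, and 40.5 and 45.6 in shMLL1 cells. Both shKDM4D libraries were above all others, and both shNFIB libraries were the lowest of the 8. Within this order only shMLL1 at day 0 and shNFIB at day 0 were not told apart (log2 ratio 0.09, 95% interval -0.01 to 0.20).

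*Hmox1* (chromosome 8, from 75093621 to 75100589, plus strand, protein coding) encodes the inducible haem oxygenase, which opens haem to biliverdin, iron and carbon monoxide. Its RPKM was 27.1 and 44.5 in shControl, 31.1 and 61.2 in shKDM4D, 23.1 and 34.2 in shNFIB, and 18.8 and 41.7 in shMLL1 cells. On the RPKM scale the 4 day 5 libraries lay above the 4 day 0 libraries without overlap, and all 7 pairs of neighbours were told apart by counting error. Divided by *Gapdh*, shNFIB cells at day 0 stood above shMLL1 cells at day 5, so the days overlapped. The share of all expressed genes whose days did not overlap was not counted.

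The glutathione genes were lower per length. *Gclc* (chromosome 9, from 77754535 to 77794485, plus strand, protein coding), the catalytic subunit of the enzyme that starts glutathione synthesis, was at 8.86 and 7.54 RPKM in shControl, 11.5 and 8.72 in shKDM4D, 12.0 and 6.54 in shNFIB, and 12.0 and 8.98 in shMLL1 cells. The 3 knockdown libraries of day 0 were the highest, and the shNFIB library of day 5 was the lowest. *Gclm* (chromosome 3, from 122245557 to 122270732, plus strand, protein coding), the modifier subunit of the same enzyme, had the lowest median of the 9 genes. It was at 6.30 and 2.79 RPKM in shControl, 6.30 and 4.28 in shKDM4D, 6.06 and 2.81 in shNFIB, and 6.15 and 2.94 in shMLL1 cells. The 4 day 0 libraries were not told apart from their neighbours, nor were the day 5 libraries of shControl, shNFIB and shMLL1 cells, while shKDM4D cells at day 5 stood between these sets. *Gsr* (chromosome 8, from 33652523 to 33698163, plus strand, protein coding) encodes glutathione reductase, which returns oxidized glutathione to its reduced form with NADPH. It was at 26.1 and 14.7 RPKM in shControl, 29.7 and 26.3 in shKDM4D, 21.6 and 18.5 in shNFIB, and 27.8 and 20.1 in shMLL1 cells. The lowest library was shControl at day 5, and the days overlapped.

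*Txnrd1* (chromosome 10, from 82833951 to 82897712, plus strand, protein coding) encodes the cytosolic thioredoxin reductase. It was at 33.5 and 18.4 RPKM in shControl, 30.1 and 21.6 in shKDM4D, 36.0 and 18.8 in shNFIB, and 44.0 and 18.5 in shMLL1 cells. On the RPKM scale the days did not overlap, with every day 5 library below every day 0 library. As above, the share of all expressed genes without such overlap was not counted. The shControl, shNFIB and shMLL1 libraries of day 5 were not told apart. *Srxn1* (chromosome 2, from 152105516 to 152111376, plus strand, protein coding) encodes sulfiredoxin, which restores overoxidized peroxiredoxins. It was at 12.2 and 11.5 RPKM in shControl, 17.6 and 15.4 in shKDM4D, 13.7 and 9.74 in shNFIB, and 12.4 and 9.56 in shMLL1 cells. Both shKDM4D libraries were the highest of the 8, and the shMLL1 and shNFIB libraries of day 5 were the lowest and were not told apart.

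**Figure D1:**
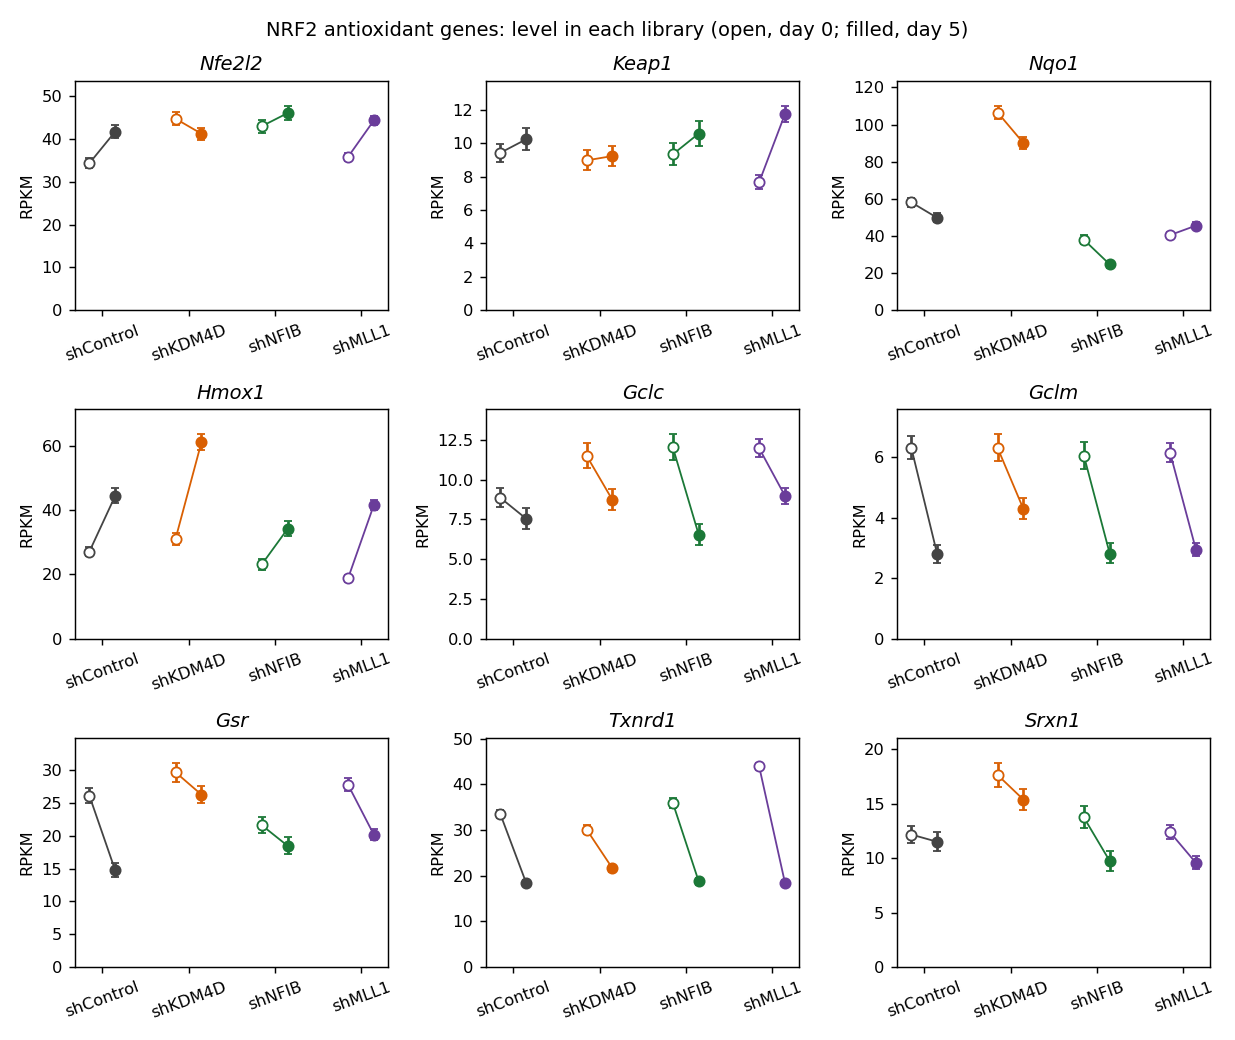
The level of each of the 9 genes is plotted in RPKM (y axis, from 0) for the 4 lines (x axis), with open points for day 0, filled points for day 5, a line joining the pair and 95% Poisson intervals of the recovered reads as bars. *Hmox1* lies higher at day 5 in every line, *Gclm* and *Txnrd1* lie lower, and *Nqo1* is highest in shKDM4D cells (107 and 90.0 RPKM) and lowest in shNFIB cells (37.9 and 24.6 RPKM).

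The first comparison asked how the 9 genes changed during adipogenic differentiation in control cells. *Gclm* fell by more than 2-fold, with a log2 ratio of day 5 to day 0 of -1.18 (95% interval -1.36 to -1.00), and none of the 9 rose by more than 2-fold. Of all 11513 expressed genes, 13.0% rose and 8.56% fell past the same limit in this comparison, so 1 of 9 fallen genes is near the background. *Txnrd1* and *Gsr* were lower, at -0.86 (-0.93 to -0.80) and -0.83 (-0.95 to -0.71), and *Hmox1* was higher, at 0.72 (0.61 to 0.83). *Nqo1* (-0.22) and *Gclc* (-0.23) were slightly lower and *Nfe2l2* (0.28) slightly higher, while the intervals of *Keap1* (-0.01 to 0.24) and *Srxn1* (-0.23 to 0.07) held 0. The median of the 9 genes was -0.22, beside 0.03 over all expressed genes. The *Gclm* call was lost when 1 was added to each RPKM, here and in the shNFIB and shMLL1 lines.

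In shKDM4D cells none of the 9 genes passed 2-fold between the days, beside 12.8% of all expressed genes that rose and 8.44% that fell. *Hmox1* was just short of the limit, at 0.98 (0.87 to 1.08). *Gclm* and *Txnrd1*, the genes with the lowest ratios here, were at -0.56 (-0.72 to -0.40) and -0.48 (-0.55 to -0.41), and the other 6 genes lay between -0.40 and 0.04. The median of the 9 was -0.20, beside 0.03 over all expressed genes. *Gapdh* itself was lower at day 5 in this line, and dividing by it shifts every gene up by 0.47 in this comparison. That shift brought *Hmox1* past the limit (1.44) and turned the sign of *Nfe2l2*, *Nqo1*, *Gclc*, *Gsr* and *Srxn1*. It left *Gclm* at -0.09 and *Txnrd1* at -0.01.

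In shNFIB cells *Gclm* fell past 2-fold, at -1.11 (-1.31 to -0.91), and no gene of the 9 rose past it. The background was 12.6% of expressed genes higher and 4.96% lower. *Txnrd1* (-0.94, interval -1.01 to -0.86) and *Gclc* (-0.88, interval -1.06 to -0.71) were close to the limit. *Nqo1* was at -0.62 and *Srxn1* at -0.50, and *Hmox1* was higher at 0.57 (0.43 to 0.71). The median of the 9 was -0.50, beside 0.09 over all expressed genes. Dividing by *Gapdh*, which shifts this comparison by -0.56, gave 5 genes past 2-fold in place of 1, brought *Hmox1* to 0.00 and turned the sign of *Nfe2l2* and *Keap1*. Median-of-ratios size factors, quantile normalization and leaving out the rRNA-like genes gave 2 genes each. The shares of all expressed genes past 2-fold were not counted on these scales.

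In shMLL1 cells *Hmox1* rose past 2-fold, at 1.15 (1.05 to 1.25), and *Txnrd1* and *Gclm* fell past it, at -1.25 (-1.30 to -1.21) and -1.06 (-1.20 to -0.93). *Hmox1* was at 0.94 with median-of-ratios size factors and *Gclm* at -0.86 with 1 added to each RPKM, both short of the limit. The background was 20.4% of expressed genes higher and 6.89% lower, and 3 of the 9 genes passed in either direction. *Keap1* was higher at day 5 here, at 0.62 (0.52 to 0.72), and *Nqo1* was at 0.17 (0.09 to 0.25), a value whose sign turned under median-of-ratios size factors, which shift all genes of this comparison by -0.21. The median of the 9 was -0.37, beside 0.17 over all expressed genes.

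Read across the lines on the RPKM scale, *Hmox1* was higher at day 5 in 4 of 4 lines, with log2 ratios from 0.57 to 1.15, and its interval left out 0 in each, although dividing by *Gapdh* brought the shNFIB value to 0.00. *Gclc*, *Gclm*, *Gsr* and *Txnrd1* were lower in 4 of 4 lines, with *Gclm* from -1.18 to -0.56 and *Txnrd1* from -1.25 to -0.48. In shKDM4D cells dividing by *Gapdh* turned the sign of *Gclc* and *Gsr* and brought *Gclm* to -0.09 and *Txnrd1* to -0.01. The share of all expressed genes with the same sign in all 4 lines was not counted. *Nqo1* was lower in 3 lines and higher in shMLL1 cells, with *Gapdh* turning the sign in shKDM4D cells and median-of-ratios size factors in shMLL1 cells. Of the reads, 7.95% to 10.5% fell on the rRNA-like genes *AY036118* and *CT010467.1* in the day 0 libraries and 3.07% to 3.62% in the day 5 libraries, so that other genes gain RPKM at day 5 without a change in their reads relative to each other. Leaving these genes out turned no sign among the ratios of the 9 genes whose interval left out 0. It did turn that of *Keap1* in shKDM4D cells, from 0.04 to -0.03, a ratio whose interval held 0.

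**Figure D2:**
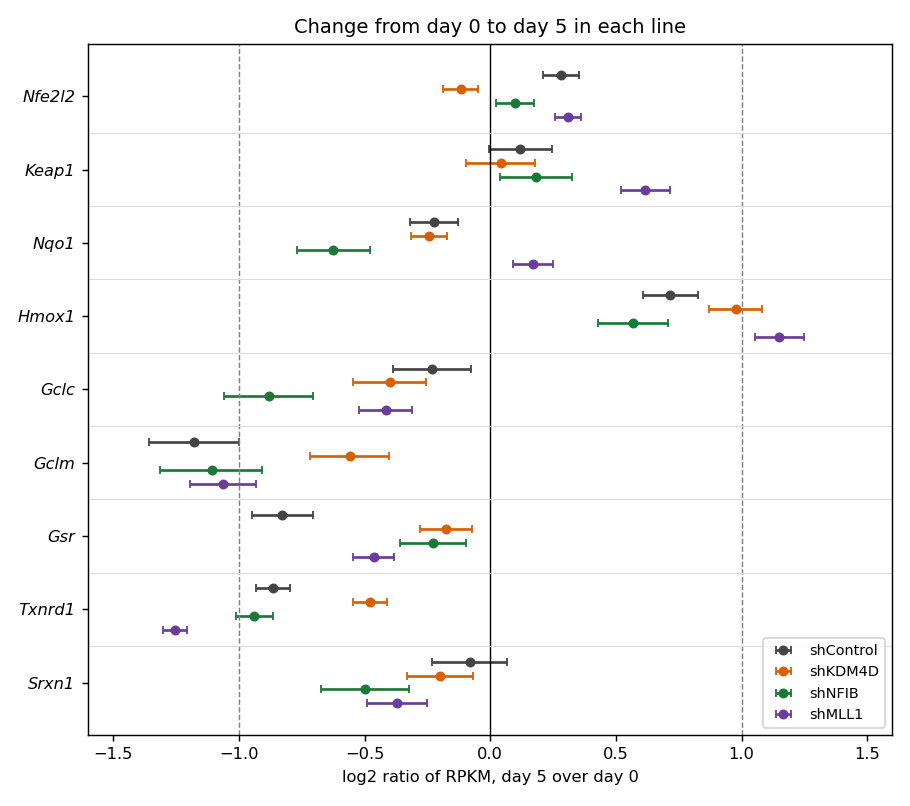
The log2 ratio of RPKM at day 5 to day 0 (x axis) is plotted for the 9 genes (rows) in the 4 lines (colours), with exact 95% intervals of counting error as bars and dashed lines at 2-fold. *Gclm* passes the lower limit in shControl, shNFIB and shMLL1 cells but not in shKDM4D cells (-0.56), calls that are lost when 1 is added to each RPKM, and *Hmox1* passes the upper limit in shMLL1 cells (1.15, but 0.94 with median-of-ratios size factors) and stands at 0.98 in shKDM4D cells, where dividing by *Gapdh* brings it to 1.44.

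The next comparisons asked how depletion of each factor changed the 9 genes before induction, with the same shControl library as reference in all 3. None of the 9 genes passed 2-fold at day 0 in any knockdown line. The background was 1.98% of expressed genes higher and 4.26% lower in shKDM4D, 2.95% and 6.05% in shNFIB, and 1.67% and 7.43% in shMLL1 cells. *Nqo1* was furthest from 0 in shKDM4D cells, at 0.88 (0.80 to 0.95), against -0.61 (-0.72 to -0.51) in shNFIB and -0.52 (-0.60 to -0.44) in shMLL1 cells. Dividing by *Gapdh*, which shifts these comparisons by -0.40, 0.64 and -0.21, left the first at 0.48 and the last at -0.73 but brought *Nqo1* in shNFIB cells to 0.03.

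*Hmox1* was at 0.20 (0.08 to 0.32), -0.23 (-0.36 to -0.10) and -0.53 (-0.64 to -0.41) at day 0 in shKDM4D, shNFIB and shMLL1 cells, and dividing by *Gapdh* turned the sign of the former pair. *Gclc* was higher in all 3 lines, at 0.38, 0.44 and 0.44, with every interval above 0, although its sign turned in shKDM4D cells on the *Gapdh* scale. Its partner subunit *Gclm* was at 0.00, -0.06 and -0.04, and each interval held 0, the widest from -0.20 to 0.08. *Srxn1* was at 0.54 (0.40 to 0.67) in shKDM4D cells, 0.17 in shNFIB and 0.02 in shMLL1 cells. *Txnrd1* was at -0.15, 0.10 and 0.39 (0.35 to 0.44), and *Gsr* was at 0.18, -0.27 and 0.09, with the sign of *Gsr* turned in all 3 lines on the *Gapdh* scale. The transcript of NRF2 itself was at 0.38 (0.31 to 0.45) in shKDM4D cells, where *Gapdh* turned its sign, and at 0.33 and 0.06 in the other 2, and *Keap1* was at -0.07, -0.01 and -0.30 (-0.41 to -0.19). The medians of the 9 genes were 0.20, -0.01 and 0.02, beside 0.00, 0.03 and -0.07 over all expressed genes. The *Gapdh* shifts given above move the medians of the 9 and of all expressed genes alike, and brought the former to -0.20 in shKDM4D cells.

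At day 5, *Nqo1* in shNFIB cells was the only one of the 9 genes past 2-fold relative to shControl cells, at -1.01 (-1.15 to -0.88), just past the limit. Its value was -0.97 after division by *Gapdh*, and the call was also lost when 1 was added to each RPKM. The background was 5.54% of expressed genes higher and 5.67% lower in shNFIB cells, 1.88% and 4.57% in shKDM4D cells, and 5.25% and 4.02% in shMLL1 cells. In shKDM4D cells *Nqo1* was at 0.86 (0.77 to 0.95), and in shMLL1 cells at -0.13 (-0.22 to -0.03). All 3 comparisons use the same shControl library, in which the adipocyte markers were far above those of the knockdown lines.

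In shKDM4D cells 7 of the 9 genes had intervals above 0 at day 5, 1 below and 1 that held 0, beside 29.2% above and 28.6% below among 11448 expressed genes with recovered reads. Besides *Nqo1* these were *Gsr* (0.83, interval 0.71 to 0.96), *Gclm* (0.62, interval 0.42 to 0.82), *Hmox1* (0.46), *Srxn1* (0.42), *Txnrd1* (0.23) and *Gclc* (0.21), that is, all of the target genes, whereas *Nfe2l2* was at -0.02 (-0.09 to 0.05) and *Keap1* at -0.15 (-0.28 to -0.02). The signs of the 7 target genes and of *Keap1* did not turn under the scalings tried, whereas that of *Nfe2l2* did, and the *Gapdh* shift at day 5 was 0.04 in this line. The median of the 9 was 0.42, beside 0.01 over all expressed genes. In shNFIB cells the genes went both ways, with *Hmox1* at -0.38 (-0.50 to -0.26), *Srxn1* at -0.24, *Gclc* at -0.21, *Gsr* at 0.33 (0.18 to 0.47) and *Nfe2l2* at 0.14, and the intervals of *Gclm*, *Txnrd1* and *Keap1* held 0. In shMLL1 cells *Gsr* was at 0.45 (0.33 to 0.57), *Gclc* at 0.25, *Keap1* at 0.20, *Srxn1* at -0.27 (-0.41 to -0.12) and *Hmox1* at -0.09, and the *Gapdh* shift of -0.36 turned the signs of *Gclc*, *Keap1* and *Nfe2l2*. The medians were 0.01 in shNFIB and 0.08 in shMLL1 cells, beside 0.09 and 0.07 over all expressed genes.

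**Figure D3:**
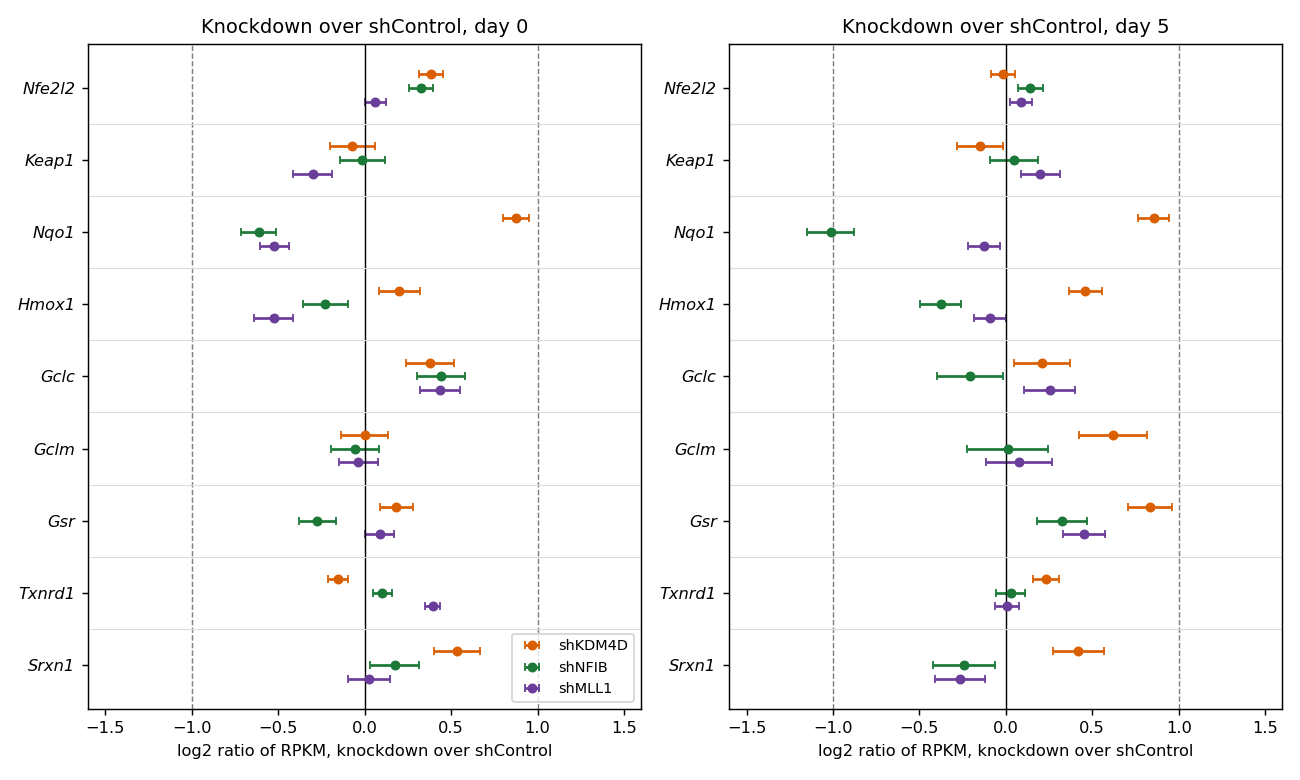
The log2 ratio of RPKM in each knockdown line to shControl cells (x axis) is plotted for the 9 genes (rows) at day 0 (left) and day 5 (right), with exact 95% intervals of counting error as bars and dashed lines at 2-fold. *Nqo1* is above 0 in shKDM4D cells (0.88 and 0.86) and below 0 in shNFIB cells (-0.61 and -1.01), where dividing by *Gapdh* brings the day 0 value to 0.03, and all 7 target genes are above 0 in shKDM4D cells at day 5.

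The knockdown lines were also set against each other in *Nqo1*, without the control. The shKDM4D line exceeded the shNFIB line by a log2 ratio of 1.49 (1.39 to 1.59) before induction and 1.87 (1.74 to 2.00) after it. The ratio of shKDM4D to shMLL1 cells was 1.40 (1.32 to 1.47) and 0.98 (0.91 to 1.06). The shNFIB and shMLL1 lines were not told apart at day 0 (-0.09, interval -0.20 to 0.01), but shNFIB cells were lower at day 5 (-0.89, interval -1.02 to -0.76). Dividing by *Gapdh* brought the 3 day 0 ratios to 0.45, 1.21 and 0.76, in the order given, and the day 5 ratios to 1.86, 1.38 and -0.48.

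Whether the change from day 0 to day 5 itself differed from that of shControl cells was examined as a difference of log2 ratios, in which all 3 lines share the same pair of shControl libraries. *Gsr* differed from the control in all 3 knockdown lines, by 0.65 (0.49 to 0.81) in shKDM4D, 0.60 (0.42 to 0.78) in shNFIB and 0.36 (0.22 to 0.51) in shMLL1 cells, its ratio being less negative in each. On the *Gapdh* scale these were 1.09, 0.01 and 0.22. *Gclm* differed by 0.62 (0.38 to 0.85) in shKDM4D cells, and its interval held 0 in shNFIB (-0.20 to 0.34) and shMLL1 cells (-0.11 to 0.33). *Txnrd1* differed by 0.39 in shKDM4D and by -0.39 in shMLL1 cells. *Nqo1* differed by -0.02 (-0.14 to 0.10) in shKDM4D cells, an interval that holds 0, and by -0.40 in shNFIB and 0.39 in shMLL1 cells. *Nfe2l2* differed by -0.40 (-0.50 to -0.30) in shKDM4D cells and *Keap1* by 0.50 (0.34 to 0.66) in shMLL1 cells. On the *Gapdh* scale the *Nqo1* differences were 0.42, -0.99 and 0.25, and the *Nfe2l2* difference in shKDM4D cells was 0.04. *Gclm* was at 1.06, -0.53 and -0.03, *Txnrd1* at 0.83 in shKDM4D and -0.53 in shMLL1 cells, and *Keap1* at 0.35 in shMLL1 cells. These intervals cover counting error, and the differences were not tested between cultures.

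The 8 libraries were then fitted together with limma, with line and day as additive terms, on log2(RPKM + 0.1) of all 11513 expressed genes. This fit, added after the values were seen, takes the differences between lines in the day effect as error (3 residual degrees of freedom) and asks for a change shared by the 4 lines. Of the 9 genes, 5 passed a Benjamini-Hochberg adjusted p of 0.05 for day 5 over day 0, beside 50.0% of all expressed genes, so the count is near the background. *Hmox1* was higher, at 0.85 (SE 0.12, limma adjusted p = 0.00255, higher in 4 of 4 lines). *Gclm* was lower at -0.95 (SE 0.13, limma adjusted p = 0.00237) and *Txnrd1* at -0.88 (SE 0.13, limma adjusted p = 0.0034), each in 4 of 4 lines on the RPKM scale. These 3 genes passed under every scaling tried and without any 1 of the lines. On the *Gapdh* scale, however, *Gclm* and *Txnrd1* were near 0 in shKDM4D cells (-0.09 and -0.01), as was *Hmox1* in shNFIB cells (0.00). *Gclc* (-0.48, limma adjusted p = 0.0208) and *Gsr* (-0.42, limma adjusted p = 0.0347) also passed, but neither did on the *Gapdh* scale. Without the shKDM4D line *Gclc* was at an adjusted p of 0.0565 in limma, and *Gsr* was at 0.104, 0.0563 and 0.0893 without the shControl, shNFIB and shMLL1 lines. Without the variance trend *Gsr* was at a limma adjusted p of 0.0545. *Srxn1* (-0.28), *Nqo1* (-0.23), *Keap1* (0.24) and *Nfe2l2* (0.14) did not pass, with limma adjusted p of 0.0553, 0.201, 0.140 and 0.277. With quantile normalization (limma adjusted p = 0.048), median-of-ratios size factors (0.0293) and totals without the rRNA-like genes (0.0213), *Srxn1* did pass.

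In the same fit, none of the 9 genes passed for any knockdown line over shControl across both days, beside shares of all expressed genes of 0.0347% (shKDM4D), 0.373% (shNFIB) and 0.0174% (shMLL1). At an unadjusted limma p under 0.05 there were 3, 1 and 0 of the 9, beside 11.6%, 21.8% and 15.2% of all expressed genes. *Nqo1* was at 0.86 (SE 0.19, limma adjusted p = 0.298) in shKDM4D and -0.81 (SE 0.19, limma adjusted p = 0.114) in shNFIB cells, each on 2 of 2 days. *Gsr* and *Srxn1* in shKDM4D cells were at 0.51 and 0.47, with limma adjusted p of 0.389 and 0.366.

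Over the 8 libraries the 9 genes did not share 1 pattern. Pearson's r of log2(RPKM + 0.1) over the 36 pairs of genes ran from -0.84 to 0.93, with *Gclm* and *Txnrd1* at the top. The points share 4 lines, 2 days and the same libraries, and the values are given as a description. For the 5 genes that ranged over more than 2-fold, the 3 expressed genes with the most similar pattern were *Pcif1*, *Plekhm3* and *Ranbp10* for *Nqo1* (r from 0.96 to 0.97), *Col23a1*, *Copa* and *Kcnd1* for *Hmox1* (0.99 each), *Asap1*, *Luzp1* and *Cbfb* for *Gclm* (0.98 to 0.99), *Farsb*, *Kansl2* and *Nr1d1* for *Gsr* (0.93 each), and *Ube2j1*, *Olfm1* and *Snx9* for *Txnrd1* (0.98 to 0.99).

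The rest of the pathway was followed in 7 lists of 67 further genes, of which 58 were expressed. In shControl cells 11 of the 58 (19.0%) rose and 2 (3.45%) fell past 2-fold from day 0 to day 5, against 13.0% and 8.56% of all expressed genes. The counts were 9 and 2 in shKDM4D (15.5% and 3.45%, against 12.8% and 8.44%), 8 and 1 in shNFIB (13.8% and 1.72%, against 12.6% and 4.96%), and 15 and 1 in shMLL1 cells (25.9% and 1.72%, against 20.4% and 6.89%). The medians of the 58 genes were 0.26, 0.19, 0.32 and 0.25 in the 4 lines, whereas those of the 9 genes above were all below 0 on the RPKM scale. Dividing by *Gapdh* moves both medians of a line alike. It brought that of the 9 genes in shKDM4D cells to 0.27 and that of the 58 in shNFIB cells below 0. *Gsta4*, *Gstm1*, *Gstm2*, *Gstm5*, *Txnip* and *Aldh3a1* rose past 2-fold in all 4 lines and *Maff* fell past it in all 4. The share of all expressed genes past 2-fold in all 4 lines was not counted. The *Gapdh* shifts given above turn none of these signs, but the shift in shNFIB cells brings *Gstm1*, *Gstm2*, *Gstm5*, *Txnip* and *Aldh3a1* below 2-fold there. Median-of-ratios size factors shift shKDM4D, shNFIB and shMLL1 cells by -0.05, -0.11 and -0.21. They bring *Txnip*, *Aldh3a1* and *Gstm5*, in that order, just below 2-fold. Leaving out the rRNA-like genes, a shift of -0.07 in shKDM4D and in shNFIB cells, does so for *Txnip* and *Aldh3a1*, in that order.

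Among the regulators, *Maff*, which encodes a small MAF partner of NRF2, fell by 1.33, 2.04, 1.39 and 1.03 on the log2 scale in shControl, shKDM4D, shNFIB and shMLL1 cells between the days. *Sqstm1*, whose product p62 binds KEAP1, was at -1.08 and *Osgin1*, an oxidative stress-induced growth inhibitor, at -1.15 in shNFIB relative to shControl cells at day 0, and the *Gapdh* shift of 0.64 brings both short of 2-fold. *Nfe2l1*, which encodes the NRF2 relative NRF1, was at -1.44 in shMLL1 cells at day 0.

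In the glutathione list, several glutathione S-transferases, which attach glutathione to electrophiles, rose, and 11 of its 16 genes were expressed. *Gsta4* was at 2.74, 2.58, 2.55 and 3.79 in the 4 lines and *Gstm1* at 1.88, 2.26, 1.28 and 1.51, although members of the Gst families are near copies of each other and their reads may be split uncertainly. *Slc7a11*, the cystine transporter that feeds glutathione synthesis, behaved differently by line. It fell in shControl cells from 2.56 to 0.613 RPKM (log2 ratio -2.06, interval -2.31 to -1.82) and in shKDM4D cells from 2.67 to 0.834 (-1.68), but was at 0.589 and 0.925 in shNFIB and at 0.775 and 0.940 in shMLL1 cells. Relative to shControl cells at day 0 it was at -2.12 in shNFIB and -1.73 in shMLL1 cells.

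In the thioredoxin list, *Txnip*, which encodes a thioredoxin-binding inhibitor, rose at 1.83, 1.05, 1.46 and 3.12 in shControl, shKDM4D, shNFIB and shMLL1 cells, while *Txnrd1* was lower in each on the RPKM scale. Of the haem and iron genes, *Fth1*, the ferritin heavy chain, was at 1.34, 1.19, 0.94 and 1.35 and *Blvrb*, a biliverdin reductase that acts downstream of haem oxygenase, at 1.02, 0.82, 1.23 and 1.57. *Fth1* has processed pseudogenes with which it may share reads. In the detoxification list, the aldehyde dehydrogenase gene *Aldh3a1* was at 2.08, 1.16, 1.02 and 1.69 and the aldehyde oxidase gene *Aox1* at 1.57, 1.18, 0.59 and 2.28. *Ugt1a6a*, of the same list, rose past 2-fold in shKDM4D, shNFIB and shMLL1 cells. It went from 4.91 to 40.5 RPKM in shMLL1 cells and from 14.3 to 27.1 RPKM in shControl cells, short of the limit. Of the superoxide and peroxide enzymes, the catalase gene *Cat* passed 2-fold in shControl (1.24) and shMLL1 cells (1.11), and *Sod3*, the extracellular superoxide dismutase, was at -2.42 at day 0 and -2.48 at day 5 in shNFIB relative to shControl cells. None of the 6 NADPH supply genes passed 2-fold in any of the 10 comparisons.

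**Figure D4:**
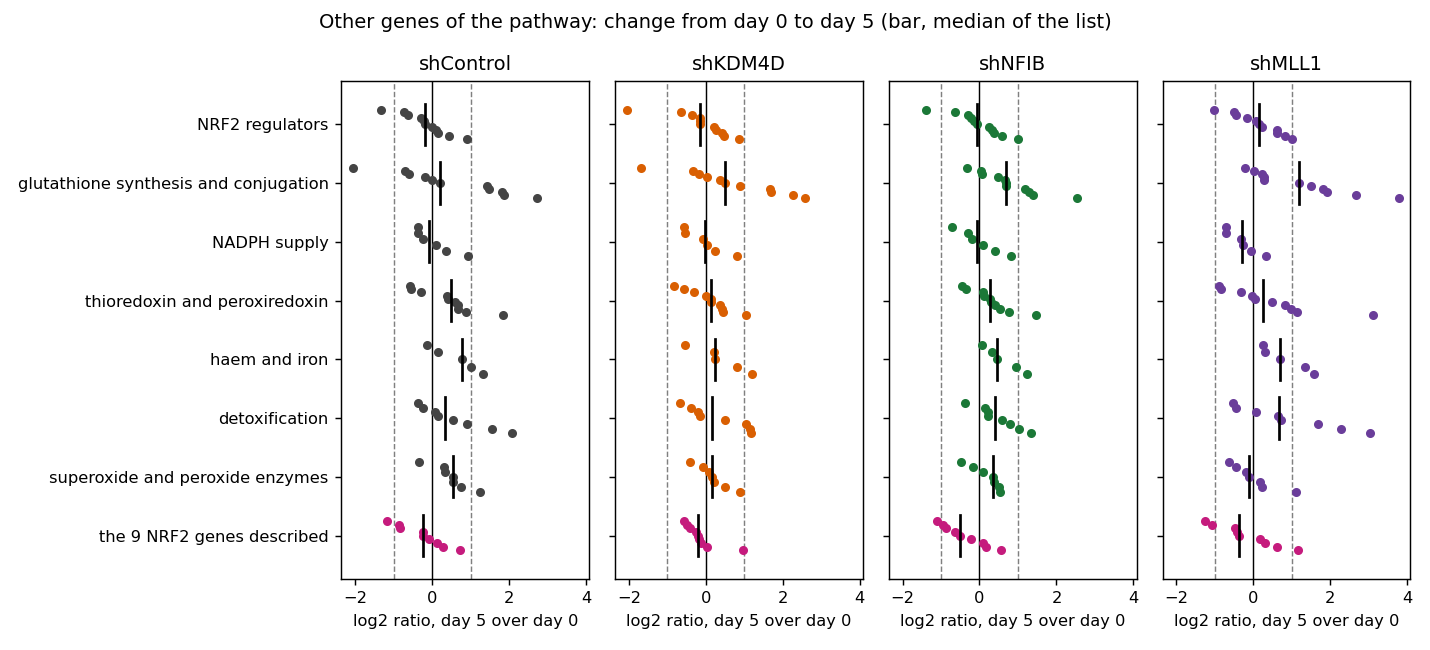
The log2 ratio of RPKM at day 5 to day 0 (x axis, the same in all panels) is plotted for each expressed gene of the 7 further lists and, in the bottom row, for the 9 genes described, in each line (panels), with a bar at each list's median and dashed lines at 2-fold. The 9 genes have medians of -0.22, -0.20, -0.50 and -0.37 in shControl, shKDM4D, shNFIB and shMLL1 cells, and the genes furthest to the right belong to the glutathione, thioredoxin and detoxification lists.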

How the data were processed

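The data are RNA-seq values of 8 libraries of C3H10T1/2 cells, 1 per line and day. The labels name a SMARTer mRNA-seq kit and the study's methods a stranded SMARTer kit. CLC Genomics Workbench 11.0.1 was used by the authors to map them to GRCm38, at a cost of 2 for a mismatch and 3 for an insertion or deletion, with 0.8 as the least fraction of length and of similarity, and they deposited RPKM values per gene. The annotation and the strand setting of the counting are not given in the sources used here. RPKM depends on the total of each library, so a few abundant genes can move all others.

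Reads were recovered from the RPKM values with union exon lengths of GENCODE M21. Of the values worth 1 to 1000 reads, 96.2% to 96.6% lay no more than 0.02 from a whole number. Ratios were taken without a pseudocount and called past 2-fold among genes above an RPKM of 1 in any library, with exact Clopper-Pearson intervals (normal approximation for differences of changes). A limma 3.58.1 fit of log2(RPKM + 0.1) on line and day, with a variance trend and Benjamini-Hochberg adjustment over all expressed genes, was added after the values were seen. Both scripts were tested on simulated data. R 4.3.3, Python 3.11.15, pandas 2.3.3, scipy 1.17.1 and matplotlib 3.10.9 were used.

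The members and lists were chosen with earlier results of these data known. Named genes are the 9 members, the targeted genes, at most 4 genes of a list past 2-fold in the comparison described, and the 3 most correlated genes of each member with a range over 2-fold. The alternatives were quantile normalization, median-of-ratios size factors, division by *Gapdh*, totals without rRNA-like genes, pseudocounts of 0.1 and 1, a 1.5-fold limit, and other filters on low values. For the limma fit, leaving out each line and the variance trend were added. No annotated gene that overlaps a member and has an RPKM value exceeded 0.357 RPKM. *Gm6061*, a pseudogene on the same strand at *Gclm*, and *Gm38560* at *Txnrd1* had no value.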

Additional observations from a re-analysis of the deposited data

Results flagged for a closer look

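*Nqo1* was higher than in shControl cells in the shKDM4D line and lower in the shNFIB line on both days. The log2 ratios were 0.88 in shKDM4D and -0.61 in shNFIB cells at day 0, and 0.86 and -1.01 at day 5. The difference between these lines was not tested, and both use the same shControl library. Against shControl cells across both days, *Nqo1* passed the limma fit in neither line (limma adjusted p = 0.298 in shKDM4D and 0.114 in shNFIB cells). The comparison of knockdown effects was added to this screen after the values were seen. On the *Gapdh* scale the shNFIB value of day 0 was 0.03.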

How the results depend on the processing

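Each condition has 1 library, so no replicate of a condition could be left out. The fit with line and day as terms pairs the days within each line, and without any 1 line 4 of the 9 genes passed for day, in place of 5. With a 1.5-fold limit, the number of the 9 genes past it was 4 in place of 1 from day 0 to day 5 in shControl and in shNFIB cells and 1 in place of 0 in shKDM4D cells, and relative to shControl cells it was 1 in place of 0 in shKDM4D and in shNFIB cells at day 0 and 3 in place of 0 in shKDM4D cells at day 5. In shMLL1 cells between the days it was 4 in place of 3, and 2 with 1 added to each RPKM or with median-of-ratios size factors. Adding 1 to each RPKM left 0 in place of 1 in shControl and in shNFIB cells between the days and in shNFIB relative to shControl cells at day 5. Dividing by *Gapdh* gave 1 in place of 0 in shKDM4D cells and 5 in place of 1 in shNFIB cells between the days, and 1 in place of 0 at day 0 and 0 in place of 1 at day 5 in shNFIB relative to shControl cells, and left 3 in place of 5 genes past the limma test for day. Quantile normalization, median-of-ratios size factors and totals without the rRNA-like genes each gave 2 in place of 1 in shNFIB cells between the days. With each of them *Srxn1* also passed the limma test for day, and *Gsr* did not pass it without the variance trend. The cause of these differences was not tested. The shares of all expressed genes past 1.5-fold, or past 2-fold with these scalings and pseudocounts, were not counted. Of the 74 ratios of the 9 genes whose interval left out 0, dividing by *Gapdh* turned the sign of 18, median-of-ratios size factors of 2, quantile normalization of 1, and the other alternatives of none. Depth limits *Gclm* most, with 280 reads in its shallowest library.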
